A study of Mus musculus with 7 samples.

Results

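The comparison set a mouse lung tumor treated with gefitinib for 14 days against a tumor of the same model given vehicle and sampled at day 3, and it covered 13997 of the 21892 genes listed. It used 2 of the 7 libraries of the study, with 1 library in each group, and a gene entered it when its mean over the 7 libraries was at least 1 TPM (a level corrected for gene length, summing to 1000000 in each library). All tumors carried an exon 19 deletion of Egfr, grew under the skin and were passaged in C57BL/6 mice, which keep their own immune system. The gef d14 group had received gefitinib for 14 days; the vehicle d3 group had received vehicle, its treatment field records no treatment, and it had 0 days of gefitinib. A further library, gef d3, had 3 days of gefitinib and is given beside members where it helps to place day 14. The labels do not say how old the mice were, which sex they had, how many tumors a library pools or what dose was given. No day 14 vehicle library was used here, so gefitinib and the additional days in the animal cannot be told apart.

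EGFR is a receptor tyrosine kinase of epithelial cells that signals through RAS and ERK and through PI3K and AKT, and exon 19 deletions leave it active without ligand. Gefitinib blocks the ATP site of this kinase and binds such mutants tightly. ERK output drives entry into the cell cycle and its own feedback inhibitors. Tumors that shrink under EGFR inhibition leave residual tumor cells among immune, stromal and neighbouring host cells, and bulk RNA mixes all of them.

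The label of a lung tumor was checked against epithelial and alveolar markers, and both libraries held all of them. Sftpc, the surfactant protein of alveolar type 2 cells, was at 4162.1 TPM in gef d14 and 8483.5 TPM in vehicle d3. Sftpb was at 4709.3 TPM in gef d14 and 8417.7 TPM in vehicle d3. Nkx2-1, the transcription factor of lung epithelium, was at 122.3 TPM in gef d14 and 391.6 TPM in vehicle d3. Every marker of this check had the lower level in gef d14: the aspartic protease gene Napsa was at 307.5 against 999.7 TPM, the cadherin gene Cdh1 at 222.5 against 471.9 TPM, and the keratin genes Krt8 and Krt18 at 341.1 against 478.8 and 510.6 against 791.4 TPM. Epcam, the epithelial adhesion molecule, showed the widest gap among them, at 101.8 against 571.2 TPM. In bulk RNA, fewer cells of a type and less RNA per cell cannot be told apart, which holds for every list below.

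Of the 13997 genes, 3179 (22.7%) were at least 2-fold higher in gef d14 and 1783 (12.7%) at least 2-fold lower; these counts are the background for the lists. Differences are log2((TPM + 1) / (TPM + 1)) with gef d14 on top, "higher" and "lower" mean at least 2-fold on that scale, and with 1 library per group no difference has a replicate check. The median of all genes was 0.03, with quartiles of -0.56 and 0.87. At 16-fold, 108 genes were higher and 23 lower. Spearman's rho between the libraries was 0.806 across genes, which are not independent replicates. The 20 most abundant genes held 16.2% of all TPM in gef d14 and 11.4% in vehicle d3. Cd74, the invariant chain that guides MHC class II molecules, led the gef d14 library at 27625 TPM, against 4529.4 TPM in vehicle d3. Apoe, a lipid carrier made in large amounts by macrophages, came next at 17691.4 TPM, against 1314.5 TPM.

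**Figure D1:**
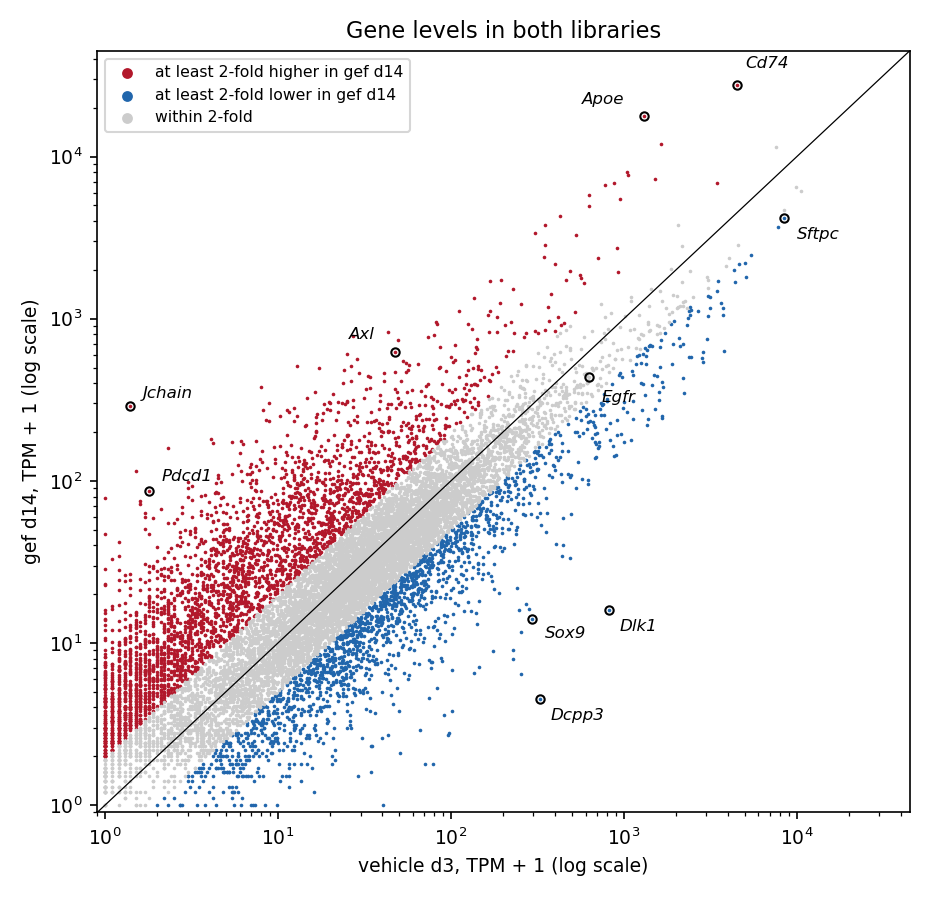
TPM + 1 of each of 13997 genes in gef d14 (vertical axis) and vehicle d3 (horizontal axis), both on log scales, with 1 library each; red and blue points lie at least 2-fold from the diagonal. Red points (3179) outnumber blue points (1783), and the labelled genes include Jchain at 288.8 against 0.4 TPM and Dcpp3 at 3.5 against 326.4 TPM.

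Genes of host tissues that can lie beside a tumor under the skin were also higher in gef d14. All 14 skeletal muscle genes were higher (median 3.74) and together held 0.374% of TPM in gef d14 against 0.0301% in vehicle d3. Of 13 adipocyte genes compared, 11 were higher and none lower (median 3.06; 0.122% against 0.019% of TPM), and of 13 skin and hair genes 10 were higher and 1 lower (median 2.20; 0.0131% against 0.0018%). Tcap, a sarcomere protein, was at 236.4 against 7.5 TPM, the fat hormone gene Adipoq at 23.4 against 0.2 TPM, and Tchh, the trichohyalin of hair follicles, at 41.8 against 2.6 TPM. Erythroid genes went the other way, with 3 of 5 lower and none higher (median -1.25). The part of neighbouring tissue in the lists below was not tested.

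The extremes were ranked among protein-coding genes with at least 10 TPM in either library. Predicted, ribosomal protein, histone, antigen receptor and small RNA genes were left out of this ranking. In it, Jchain, which joins secreted antibody units, had the highest difference (log2 difference 7.69). Gbp2b, an interferon-induced GTPase, followed at 114.7 against 0.5 TPM. Pdcd1, Nkg7, Cxcl9, Cd8a and Ccl21a were also among the 12 highest. Slpi, an inhibitor of leukocyte proteases secreted by epithelia, was at 170.2 against 3.2 TPM, and at 3.7 TPM in gef d3. Cox8b, a subunit of cytochrome oxidase used in muscle and brown fat, was at 70.7 against 0.6 TPM. Itgbl1 was at 74.2 against 0.6 TPM, Cpxm2 at 62.5 against 0.7 TPM, and Cfd, the complement factor D made by fat cells and macrophages, at 376.8 against 7 TPM.

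At the low end, Dcpp3 and Dcpp1, secreted proteins first described in salivary glands of the mouse, were at 3.5 against 326.4 TPM and 1.7 against 95.2 TPM. Scgb3a1, a secretoglobin of airways, was at 2.8 against 100.6 TPM, and Gkn2, a stomach mucosa protein, at 2.6 against 89.7 TPM. These 4 genes lay near the floor of the table in gef d14, and none did in vehicle d3. Dlk1, an imprinted membrane protein of fetal and progenitor cells, was at 15 against 822.5 TPM (log2 difference -5.69). Car4, a carbonic anhydrase on cell surfaces, was at 5.4 against 251.5 TPM, Crct1 at 8 against 228 TPM, Tmem27 at 0.8 against 77.9 TPM, and Cyp2c40, a cytochrome P450, at 0.8 against 70.2 TPM. Olfm5 (1.1 against 49.6 TPM), the carboxypeptidase gene Cpn1 (1.9 against 65.1 TPM) and Apln were also among the 12 lowest of the same ranking. Dcpp1, Dcpp3 and Cyp2c40 have close paralogs, and the handling of reads they share is not stated, so their values are uncertain.

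Egfr itself differed by less than 2-fold between the libraries. It lies on chromosome 11 at 16752203 to 16913907 (GRCm38.p6) and was at 438.7 TPM in gef d14 and 629.8 TPM in vehicle d3. Erbb3, its partner that lacks strong kinase activity and binds PI3K, was lower at 64.1 against 147.4 TPM, and Erbb2, the partner without a known ligand, was at 61.7 against 84.2 TPM. Erbb4 was listed at 0 in both. Among the ligands, Tgfa was lower at 10.7 against 28.3 TPM, while Nrg2 and Btc were higher from levels near the floor, at 3.2 against 0.1 TPM and 2.9 against 0.2 TPM. Areg and Hbegf stayed within 2-fold. The negative regulators of the receptor had 3 of 6 members higher and none lower: the ubiquitin ligases Cbl (89.8 against 37.5 TPM) and Cblb (43.8 against 14.7 TPM), and Lrig3 (8.7 against 1.8 TPM). Errfi1, which binds and inhibits the kinase, was at 70.2 against 70.1 TPM.

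ERK output was lower in part. Of 21 target and feedback genes 9 were lower and 2 higher (median -0.97), against a background of 12.7% lower and 22.7% higher. The ETS factors Etv4 and Etv5 were at 47 against 163.1 TPM and 28.5 against 71.1 TPM. Etv4 was at 22.1 TPM in gef d3, so its lowest level among the 3 libraries was at day 3. Among feedback genes, the ERK phosphatase gene Dusp4 was at 173.2 TPM in vehicle d3, 56.6 TPM in gef d3 and 49.6 TPM in gef d14, and Spry2, a Sprouty inhibitor, at 76.1, 28.5 and 29.2 TPM in the same order. The Eph receptors Epha4 and Epha2 were at 10.9 against 45 TPM and 31.2 against 96.8 TPM. Dusp5, another ERK phosphatase, and Ier3, an early response gene, stood against the list, at 37.8 against 17.2 TPM and 64.6 against 24.1 TPM. Both were nearer to vehicle d3 in gef d3, at 18.1 and 34 TPM. The list of simple epithelium had a median of -0.93 in the same pair, close to that of ERK output.

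Other receptor tyrosine kinases split by gene, with 9 of 19 higher and 6 lower (median 0.63). Axl, a TAM receptor found on macrophages, fibroblasts and some carcinoma cells, was at 624.7 against 46.6 TPM. Its ligand Gas6 went the opposite way, at 915.7 TPM in vehicle d3, 822.5 TPM in gef d3 and 191.7 TPM in gef d14. Pdgfra, the receptor of fibroblasts, was at 44.5 against 6.9 TPM, Kit, the receptor of mast cells and progenitors, at 18.4 against 2.6 TPM, and Fgfr1 at 69.7 against 15.8 TPM. The kinases at the low end were Fgfr4 (0.3 against 10.6 TPM) and Ros1 (8.6 against 79.2 TPM). Fibroblast and macrophage lists moved with the higher kinases, and their part was not tested. Among ligands of these kinases 7 of 14 were higher and 2 lower, with Igf1 at 25.1 against 2.6 TPM, Pdgfc at 38.4 against 5.2 TPM and Fgf1 lower at 26.9 against 74.1 TPM. The interleukin 6 family and STAT3 list had 7 of 10 members higher and none lower (median 1.70). The higher members were receptor and signalling genes, and the cytokine genes compared stayed within 2-fold. Higher receptor genes included Il6ra (110.1 against 18.6 TPM), Osmr (29.1 against 4.7 TPM) and Lifr (26.7 against 5.3 TPM). Socs3, the feedback inhibitor, was at 184.3 against 48.5 TPM.

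Cell cycle genes were lower almost throughout. In mitosis, 23 of 24 genes were lower and none higher (median -2.44), and in DNA replication 23 of 25 were lower and none higher (median -1.73). Ube2c, the ubiquitin-conjugating enzyme of the anaphase-promoting complex, was at 39.8 against 406 TPM. Kif20a, a kinesin of cytokinesis, was at 9.3 against 91.3 TPM, and Bub1, a spindle checkpoint kinase, at 2.8 against 32.8 TPM. The exception in mitosis was Pttg1, securin, at 16.8 against 13.9 TPM. Cdk1, the mitotic kinase, was at 6.5 against 60.2 TPM, and Mki67 at 47 against 142.2 TPM. Among replication genes Mcm5, part of the replicative helicase, was at 34.5 against 138.2 TPM, Rrm2, which makes deoxynucleotides, at 30.7 against 117.9 TPM, and Gins2 at 15.1 against 70.1 TPM. Day 3 of gefitinib had medians of -2.17 for mitosis and -1.70 for replication against the same vehicle library. Replication-dependent histones were lower too (12 of 12, median -2.07).

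Of 15 cyclin, kinase and E2F genes 4 were lower, 2 higher and 9 within 2-fold (median -0.65). Ccna2, the S phase and mitotic cyclin, was at 20.9 against 121 TPM, Cdk4, the G1 kinase, at 207 against 786.6 TPM, and Ccne1 at 9.9 against 23.8 TPM. Ccnd2 and Cdk6, a D cyclin and a kinase abundant in blood cells, were higher at 75.4 against 9.7 TPM and 28.4 against 3.3 TPM. The list of CDK inhibitors and quiescence genes had 4 of 14 members higher and none lower, which is close to the background of 22.7%. Gas1, a growth arrest gene, was at 34.5 against 6.6 TPM and Cdkn2b at 8.8 against 2 TPM, while Cdkn1a was at 66.4 against 93.6 TPM. Targets of p53 lay mostly within 2-fold, with 1 of 14 higher (Sesn1, 27 against 8 TPM) and 1 lower (Gdf15, 15.8 against 67.7 TPM).

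Genes of the BCL2 family that protect cells were higher in 5 of 7 cases and lower in none. Mcl1 was at 323.4 against 134.5 TPM. Bcl2a1a, Bcl2a1b and Bcl2a1d, near-identical copies active in leukocytes whose values are uncertain for that reason, were at 53.4 against 17.7, 131.4 against 57.4 and 72.4 against 19.4 TPM. Bcl2l1, which encodes BCL-XL, was at 56.7 against 80.1 TPM. On the death-promoting side 3 of 10 were higher and 1 lower. Bcl2l11, which encodes BIM, a mediator of death after EGFR inhibition, was at 35.9 against 15.3 TPM. Pmaip1, which encodes NOXA, was at 10.5 against 1.6 TPM, whereas Bok was lower at 17.4 against 50.6 TPM.

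**Figure D2:**
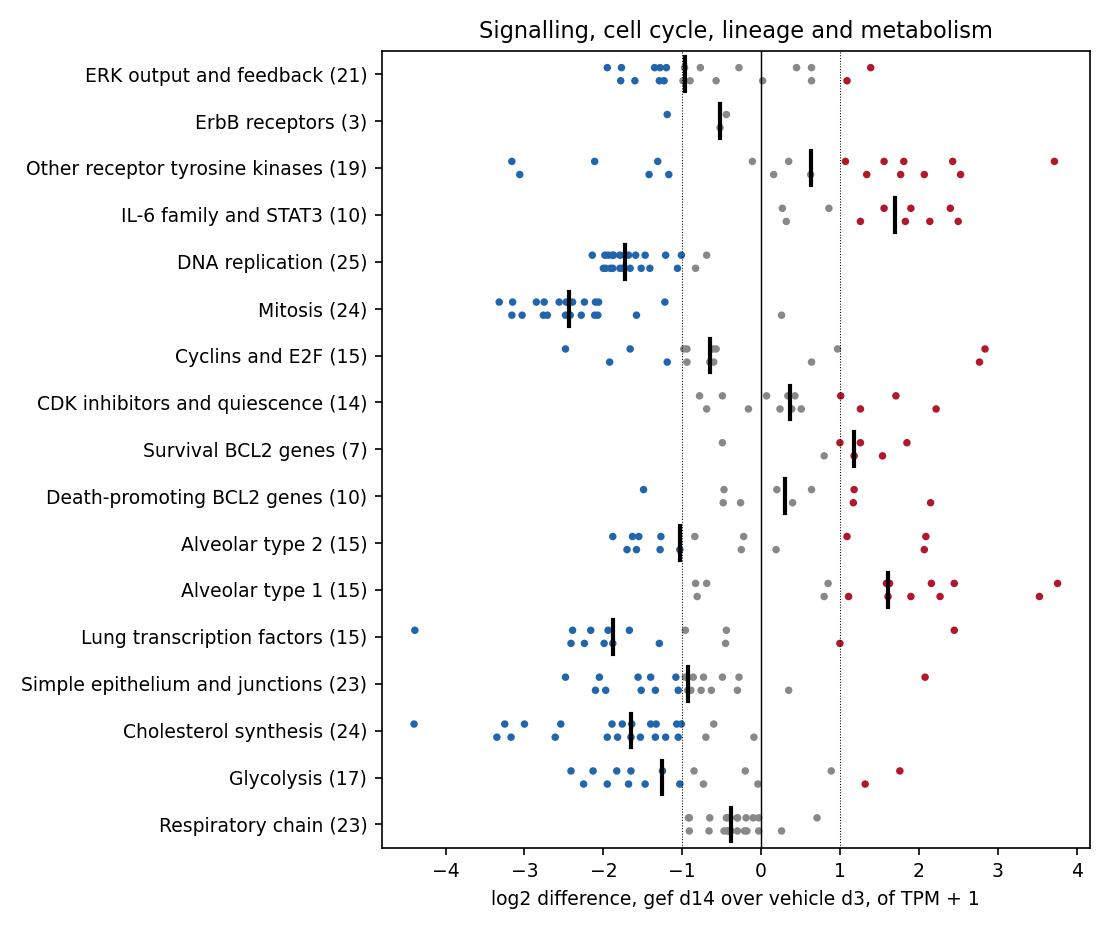
Log2 difference of TPM + 1, gef d14 over vehicle d3, for each member (point) of 17 lists, with the number compared in brackets, the list median as a black bar and dotted lines at 2-fold; red is higher, blue lower, grey within 2-fold. Mitosis (median -2.44) and cholesterol synthesis (-1.65) lie left of 0, the respiratory chain (-0.38) has no member past 2-fold, and other receptor tyrosine kinases spread to both sides.

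Promoters are printed for a pair of mitotic genes and a pair of interferon genes, since nearly all genes of these lists were lower or higher and many of their promoters share letters. The windows run from 250 bases before to 50 after the gene start, from RefSeq on GRCm38.p6. Letters were searched on both strands: TTTGAA, the core of the cell cycle homology region; CCAAT; GAAANNGAA, the core of the interferon-stimulated response element; and TTCNNNGAA, the gamma-activated site. Promoters of 20 of the 24 mitosis genes and 13 of the 18 interferon gamma genes were in the table. Capitals mark TTTGAA and CCAAT on either strand in the first pair, and GAAANNGAA and TTCNNNGAA in the second. Cdc20, the activator of the anaphase-promoting complex, is read from the minus strand of chr4:118437294-118437593, and Ube2c from the plus strand of chr2:164769679-164769978. Gbp2, an interferon-induced GTPase, is read from the plus strand of chr3:142620413-142620712, and the chemokine gene Cxcl10 from the minus strand of chr5:92348840-92349139.
Cdc20: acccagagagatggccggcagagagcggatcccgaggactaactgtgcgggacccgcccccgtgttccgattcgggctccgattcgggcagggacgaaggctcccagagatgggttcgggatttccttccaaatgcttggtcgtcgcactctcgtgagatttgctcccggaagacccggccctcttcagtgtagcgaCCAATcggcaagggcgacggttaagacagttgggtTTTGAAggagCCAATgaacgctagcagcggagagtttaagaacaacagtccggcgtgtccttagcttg
Ube2c: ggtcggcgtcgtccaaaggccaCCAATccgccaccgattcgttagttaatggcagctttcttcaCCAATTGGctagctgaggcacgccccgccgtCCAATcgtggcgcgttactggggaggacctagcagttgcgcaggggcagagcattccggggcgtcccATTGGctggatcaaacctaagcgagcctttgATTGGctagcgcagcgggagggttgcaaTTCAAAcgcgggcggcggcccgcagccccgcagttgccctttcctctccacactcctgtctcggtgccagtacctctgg
Gbp2: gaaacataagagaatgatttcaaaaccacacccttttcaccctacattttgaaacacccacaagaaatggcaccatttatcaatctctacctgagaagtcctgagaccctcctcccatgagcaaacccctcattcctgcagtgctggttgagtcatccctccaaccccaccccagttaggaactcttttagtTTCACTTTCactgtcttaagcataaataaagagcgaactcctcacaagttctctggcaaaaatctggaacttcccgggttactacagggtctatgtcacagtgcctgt
Cxcl10: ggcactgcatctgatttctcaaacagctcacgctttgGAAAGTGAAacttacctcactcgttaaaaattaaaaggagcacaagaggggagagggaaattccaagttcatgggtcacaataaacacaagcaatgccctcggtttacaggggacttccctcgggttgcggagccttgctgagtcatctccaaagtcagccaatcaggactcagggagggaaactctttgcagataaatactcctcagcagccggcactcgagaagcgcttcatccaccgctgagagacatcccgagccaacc
Cdc20 had 1 TTTGAA and 2 CCAAT matches, and Ube2c 1 and 6, with a pair of its CCAAT matches overlapping on opposite strands. Gbp2 and Cxcl10 each had 1 GAAANNGAA match and 0 TTCNNNGAA matches. TTTGAA was present in 13 of 20 mitosis promoters (65%) and in 20.2% of all 27025 promoters, and CCAAT in 16 of 20 (80%) and 41.1%. CCAAT was also in 15 of 16 cholesterol synthesis promoters (93.8%), 12 of 17 of MHC class I (70.6%) and 13 of 20 of DNA replication (65%). GAAANNGAA was present in 11 of 13 interferon gamma promoters (84.6%) and in 9.76% of all promoters, and TTCNNNGAA in 7 of 13 (53.8%) and 9.55%. In type I interferon promoters GAAANNGAA was in 9 of 15 (60%) and TTCNNNGAA in 3 of 15 (20%). In MHC class I promoters they were in 5 of 17 (29.4%) and 2 of 17 (11.8%). A letter match describes the window and is not a measured site. Cdc20 was at 23 against 172 TPM, Gbp2 at 564.8 against 27.5 TPM and Cxcl10 at 323.5 against 13.8 TPM.

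The lists of type 2 and type 1 alveolar genes differed in direction. Of 15 type 2 genes 8 were lower and 3 higher (median -1.03), close to the median of -0.93 of the simple epithelium list. Of 15 type 1 genes 10 were higher and none lower (median 1.61, or 0.97 with a pseudocount of 5 TPM). Muscle and fibroblast genes were higher in the same library, and their part in the type 1 values was not tested. Type 2 cells make surfactant and act as progenitors of the flat type 1 cells that exchange gas. Slc34a2, the phosphate carrier of type 2 cells, was at 226.2 against 835.6 TPM, and Lamp3, a protein of lamellar bodies, at 93.4 against 281.2 TPM. Fabp5, a fatty acid carrier, was at 681.9 against 2109.1 TPM, and Lpcat1, which makes surfactant lipid, at 155 against 378.2 TPM. Sftpd, a collectin of surfactant, ran against its list at 917.8 against 432 TPM, with 383.1 TPM in gef d3. Lyz1, at 75.3 against 17.2 TPM, is also a gene with a near-identical copy in macrophages.

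At day 3 of gefitinib 9 of the 15 type 1 genes were higher and 1 lower. Aqp5, the water channel, was at 669 against 137.8 TPM, Hopx, a homeodomain protein, at 67.4 against 11.5 TPM, and Igfbp2 at 27.5 against 1.1 TPM. Sec14l3 was at 85.6 against 6.5 TPM and Gprc5a at 288.7 against 76.4 TPM. Ager, the type 1 cell receptor for advanced glycation products, was chosen after its values were seen, and was at 815.8 TPM in gef d14 against 269.9 TPM in vehicle d3. Members below their vehicle level stayed within 2-fold, such as Emp2 at 100.1 against 161.8 TPM. The transitional state list, genes of type 2 cells on the way to type 1, had 5 of 16 higher and 2 lower (median 0.28), with the stress gene Nupr1 at 167.6 against 22.5 TPM and Krt19 at 186.7 against 552.6 TPM.

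Lung transcription factors were mostly lower, 10 of 15 with 2 higher (median -1.88). Sox9, a factor of the distal tips of the embryonic lung, was at 293.4 TPM in vehicle d3, 45.2 TPM in gef d3 and 13 TPM in gef d14. Id2, another factor of those tips, was at 162.5 against 867.2 TPM. Foxa1, a pioneer factor of lung epithelium, was at 37.5 against 201.3 TPM, and Elf5 at 29.5 against 143 TPM. The epithelial list of keratins and junctions was lower by less, with 10 of 23 lower and 1 higher (median -0.93). Its low end held Epcam, the tight junction gene Ocln (2.6 against 14.4 TPM), the epithelial factor Grhl2 (11.6 against 51.1 TPM) and the splicing regulator Esrp1 (22.8 against 92.4 TPM). Cldn4 was at 34.5 against 26.9 TPM, with 2.8 TPM in gef d3.

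Secretory, gastric and squamous genes gave mixed lists. Club and secretory cell genes had 5 higher and 5 lower of 13, with Cbr2, a carbonyl reductase of club cells, at 2397.6 against 343 TPM, and Cyp2f2, a club cell P450, at 615.7 against 137.5 TPM. Scgb1a1, the defining secretoglobin, was at 11 TPM in gef d14 and listed at 0 in vehicle d3. Gastric and gut genes had 4 higher and 3 lower of 12, with Ctse at 13.2 against 2.9 TPM. Squamous genes had 6 higher and 4 lower of 11 (median 1.32), and the median turned to -0.63 among genes with a mean of at least 5 TPM. Krt5 and Krt14, keratins of basal skin cells, were at 7.8 and 5 TPM, against 0.1 TPM each, beside the higher skin and hair list. Trp63, the basal cell factor, was lower at 1.7 against 14.1 TPM, and the cornified envelope gene Lce3f at 6.1 against 144 TPM.

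Mesenchymal, YAP and Wnt genes were higher in part. Of 14 mesenchymal transition genes 9 were higher and none lower (median 1.84), with Zeb2 at 71.7 against 9.7 TPM and Twist1 at 37.3 against 4.7 TPM. Fn1, fibronectin, stayed level at 712.5 against 740.3 TPM while gef d3 held 1427.9 TPM. These factors are also made by fibroblasts and macrophages, whose lists were higher, and the source was not tested. YAP and TEAD genes had 7 of 16 higher and 2 lower: Ctgf, a standard YAP target, was at 226.3 against 15.6 TPM, and Ankrd1 at 9 against 1.2 TPM, whereas the factors Tead2 and Tead4 were at 26 against 143.1 TPM and 7.6 against 30.2 TPM. Of 15 Wnt genes 9 were higher and 2 lower, with the feedback target Axin2 at 12.9 against 0.5 TPM, Lgr5 at 8.5 against 0.5 TPM, and Sp5 lower at 1.2 against 7.6 TPM. In the Notch list 1 of 12 was higher (Notch2, 175.7 against 78.5 TPM) and 1 lower (Jag2, 12.7 against 49.3 TPM).

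Sterol synthesis was lower along the pathway, with 21 of 24 cholesterol genes lower and none higher (median -1.65). The enzymes Idi1, Fdps and Sqle were at 6.6 against 76.6, 17.2 against 144.1 and 13.8 against 89.6 TPM. Stard4, a carrier of cholesterol, was at 6.8 against 73.2 TPM. Fatty acid synthesis had 9 of 16 lower and 1 higher (median -1.07), with the elongase Elovl6 at 3.9 against 29.8 TPM and the desaturase Fads2 at 38 against 191.4 TPM. The higher member was Scd1, a desaturase abundant in fat, at 26.2 TPM in vehicle d3, 38.7 TPM in gef d3 and 286.1 TPM in gef d14; the adipocyte list was higher in the same library.

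Many glycolysis and hypoxia genes were lower, and the respiratory chain stayed within 2-fold. Of 17 glycolysis genes 10 were lower and 2 higher (median -1.25). The lactate carriers Slc16a3 and Slc16a1 were at 24 against 132 TPM and 20.8 against 102.4 TPM. Pfkl, a phosphofructokinase, was at 60.3 against 267.3 TPM and Tpi1 at 237 against 917 TPM, while hexokinase 1 (Hk1) was higher at 63.5 against 18.1 TPM. Hypoxia genes had 7 of 15 lower and none higher, with Egln3, a hydroxylase that targets HIF, at 6.4 against 64.2 TPM and the mitophagy gene Bnip3 at 28.4 against 133.1 TPM. Vegfa, also a HIF target, was at 75.3 against 74.2 TPM. None of 23 nuclear genes of the respiratory chain passed 2-fold (median -0.38). Ribosome biogenesis had 7 of 17 lower and none higher, ribosomal proteins 12 of 20 lower and none higher (median -1.06), with Rpl32 at 1254.8 against 3644 TPM. The serine synthesis genes Psat1 and Phgdh were at 29.9 against 151.5 TPM and 46.5 against 196.3 TPM, within an amino acid response list of 4 lower and 1 higher of 16.

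T cell genes were higher without an exception in the receptor list: 13 of 13 were higher (median 3.87, or 2.89 with a pseudocount of 5 TPM), against a background of 22.7%. These genes encode the CD3 chains that carry the antigen receptor signal and the kinases and adaptors next to it. Cd3e was at 167.7 against 5.3 TPM, Cd3g at 89.7 against 2 TPM, the adaptor Lat at 66.4 against 1.1 TPM and the kinase Lck at 77.4 against 3.7 TPM. These 4 genes lay at 5.3 TPM or less in vehicle d3, and gef d3 lay between, with Cd3e at 52.2 TPM. Both arms of T cells were present: Cd4 was at 106.9 against 3.5 TPM, and Cd8b1 at 49.1 against 0.7 TPM. Constant genes of the T cell receptor and of immunoglobulins were not analysed here.

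Cytotoxic genes were higher in 14 of 15 cases and lower in none (median 3.43, or 5.03 and 1.93 with pseudocounts of 0.1 and 5 TPM). Cd8a, the coreceptor of cytotoxic T cells (chromosome 6, 71373427 to 71379171), was at 58.8 TPM in gef d14 and 0.7 TPM in vehicle d3. Nkg7, a granule membrane protein, was at 178.9 against 3.1 TPM, Prf1, perforin, at 31.1 against 1 TPM and Tbx21, which encodes T-bet, at 25.4 against 0.3 TPM. Gzmb was at 3.1 TPM in vehicle d3, 31.6 TPM in gef d3 and 21.1 TPM in gef d14, so that its highest level of the 3 came at day 3, unlike that of Cd8a (10.6 TPM in gef d3). Ifng was at 14.4 TPM in gef d14 and listed at 0 in vehicle d3.

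Every one of 14 checkpoint genes was higher (median 3.18). Pdcd1, which encodes PD-1 (chromosome 1, 94038305 to 94052553), was at 85.5 against 0.8 TPM, with 11.7 TPM in gef d3. Lag3 was at 99.7 against 6.1 TPM, Tigit at 53.9 against 1.5 TPM and Tox, a factor of chronically stimulated T cells, at 27.7 against 1.3 TPM. Cd274, the gene of the PD-1 ligand PD-L1, was at 74.2 against 7.6 TPM and at 45.5 TPM in gef d3. Naive and memory T cell genes had 11 of 12 higher and none lower, with Tcf7, the factor of naive and stem-like T cells, at 30.9 against 2.8 TPM and 28.9 TPM in gef d3. CD4 and regulatory genes had 10 of 12 higher and none lower, with Ccr8 at 18.3 against 0.8 TPM and the costimulatory receptor gene Tnfrsf4 at 37.2 against 3.4 TPM. Natural killer genes were higher in 10 of 10, with Klrk1 at 23.7 against 1.8 TPM. Xcl1 was at 1.4 TPM in vehicle d3, 44.7 TPM in gef d3 and 26.7 TPM in gef d14. The cytotoxic T cell list was higher in the same library, and its part in the natural killer values was not tested.

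B cell and plasma cell genes were higher in gef d14, and several were near the floor in both other libraries. Of 13 B cell genes compared 12 were higher and none lower (median 2.49), and of 10 plasma cell genes 7 were higher and none lower (median 2.41). With pseudocounts of 0.1 and 5 TPM the B cell median was 4.04 and 1.18, and with 5 TPM the plasma cell median was 1.7. Cd79a, a signalling chain of the B cell receptor, was at 0.2 TPM in vehicle d3, 1.8 TPM in gef d3 and 27.1 TPM in gef d14. Ms4a1, which encodes CD20, was at 0.2 TPM in vehicle d3 and in gef d3, and at 6.1 TPM in gef d14. Jchain followed the same order, at 0.4 TPM in vehicle d3, 1 TPM in gef d3 and 288.8 TPM in gef d14. Mzb1, a chaperone of antibody-secreting cells, was at 1.8 TPM in vehicle d3, 1.3 TPM in gef d3 and 62 TPM in gef d14, and Pou2af1, a B cell coactivator, at 0.2, 1.4 and 40.8 TPM in the same order. Sdc1, also made by epithelium, was within 2-fold, at 493.3 against 684.8 TPM. Derl3, a folding gene of secretory cells, was at 24.7 against 1.3 TPM.

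Chemokines and vessel genes tied to lymphocyte entry were mostly higher. All 11 T cell chemokine and receptor genes compared were higher (median 4.01). Cxcl9, an interferon-induced ligand that draws T cells (chromosome 5, 92321331 to 92328079), was at 511.9 against 11.8 TPM, its receptor gene Cxcr3 at 78.9 against 2 TPM and Ccl5 at 776.6 against 26 TPM. Ccl21a, the chemokine of lymphatic vessels and lymph nodes, was listed at 0 in vehicle d3, at 7 TPM in gef d3 and at 46 TPM in gef d14; it has near-identical copies, so the value is uncertain. Lymphoid chemokines and lymphotoxin genes had 7 of 11 higher and none lower: Ltb, lymphotoxin beta, was at 121.6 against 6.5 TPM and Ccl19 at 9.5 against 0.3 TPM, while Ltbr, the lymphotoxin receptor, was at 200.4 against 206 TPM and Il7 at 3.4 against 5.7 TPM. Of 9 genes of high endothelial venules, 7 had the mean of at least 1 TPM needed for comparison, and all 7 were higher (median 1.85). Ackr1, a venule chemokine receptor, was at 26.6 against 1 TPM and Selp, P-selectin, at 14.1 against 1.3 TPM. Of the genes not compared, Chst4 was listed at 0 in both libraries, and Madcam1 at 0.5 TPM in gef d14 and 0 in vehicle d3. Lyve1, a marker of lymphatic vessels and some macrophages, was lower at 2 against 12.8 TPM.

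**Figure D3:**
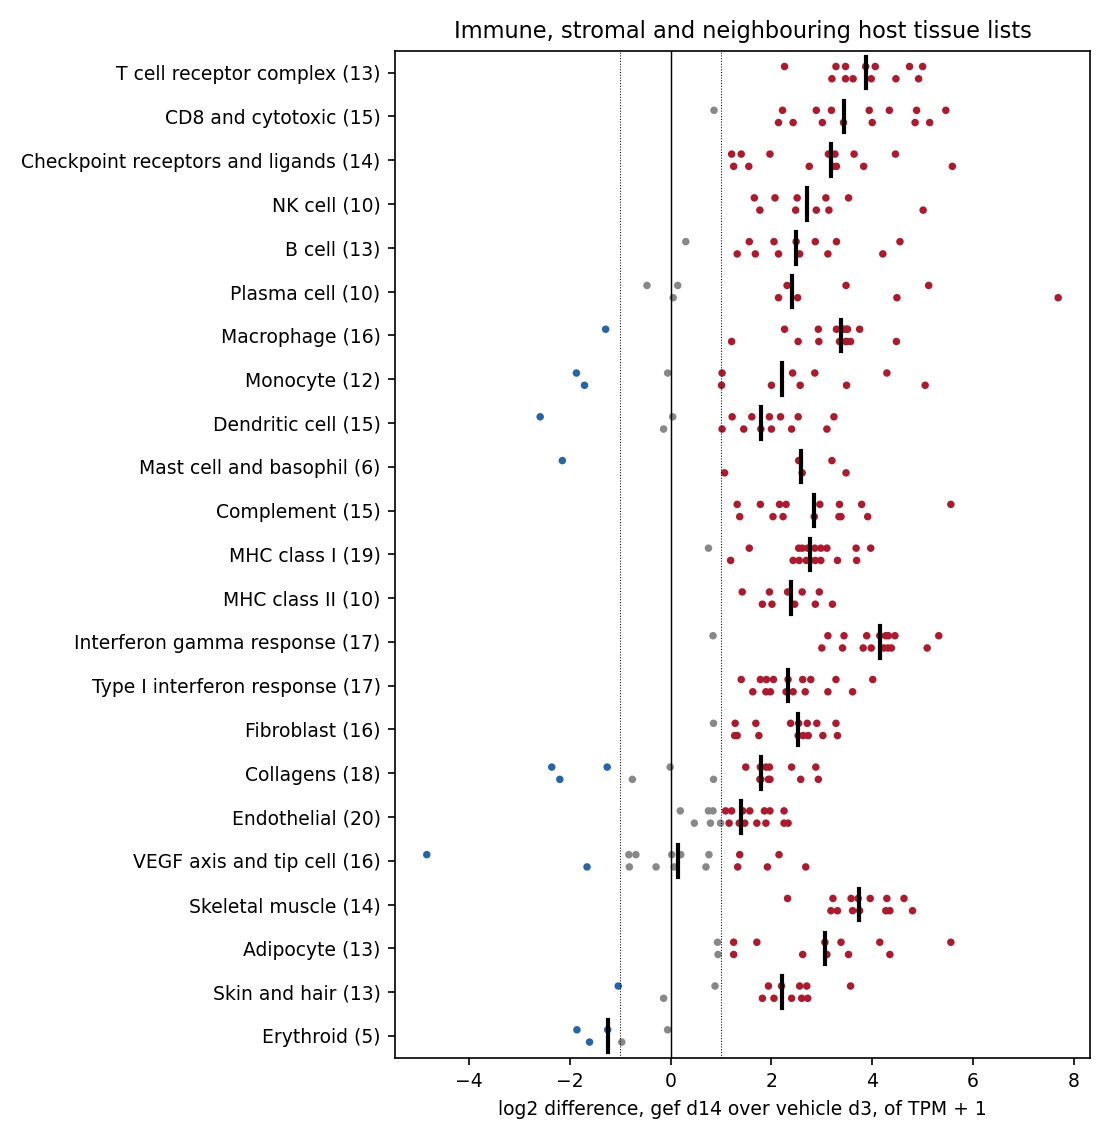
Log2 difference of TPM + 1, gef d14 over vehicle d3, for each member (point) of 23 immune, stromal and host tissue lists, with the number compared in brackets, medians as black bars and dotted lines at 2-fold. T cell receptor genes (median 3.87) and interferon gamma genes (4.15) lie right of 0, as do skeletal muscle genes (3.74), and erythroid genes (-1.25) lie left of it.

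Macrophage genes were higher in 15 of 16 cases (median 3.39) and held 3.21% of TPM in gef d14 against 0.282% in vehicle d3. Cx3cr1, a receptor of resident macrophages and monocytes, was at 79.1 against 2.6 TPM and Adgre1, which encodes F4/80, at 366.8 against 31.2 TPM. The lower member was Cd163, a scavenger receptor, at 18.1 TPM in vehicle d3, 28.2 TPM in gef d3 and 6.8 TPM in gef d14. Of 9 Fc receptor and signalling genes 8 were higher, with Fcgr4 at 273.7 against 10.2 TPM. Complement genes were higher in 15 of 15 (median 2.85), among them C1s1 at 305.4 against 21.1 TPM and the C1 inhibitor gene Serping1 at 769.7 against 73 TPM.

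Activation genes of macrophages were higher in 11 of 14 cases and lower in 1 (median 1.65). Acod1, the itaconate enzyme, was at 23.8 against 0.6 TPM, Tnf at 27.9 against 2.4 TPM and Il12b at 12.4 against 1.4 TPM. Retnla, a gene of interleukin 4 activation, was at 1709.8 against 167.2 TPM, while Arg1, arginase 1, was the lower member at 27.4 against 142.4 TPM. Among monocyte genes 9 of 12 were higher and 2 lower: Ly6c2 was at 271.4 against 7.2 TPM, and F13a1 at 40.4 TPM in vehicle d3, 122.8 TPM in gef d3 and 10.3 TPM in gef d14. The monocyte chemokines Ccl2 and Ccl8 were at 304.2 against 18.6 TPM and 2161.1 against 401.2 TPM.

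Dendritic cell genes had 12 of 15 higher and 1 lower (median 1.79). The genes of cross-presenting dendritic cells Clec9a and Xcr1 were at 17 against 0.9 TPM and 11 against 0.4 TPM, and Ccl17 was lower at 4.3 against 31 TPM. Mast cell proteases were higher, with Mcpt4 at 41.5 against 2.8 TPM and Tpsb2 at 59.7 against 5.6 TPM, whereas Hdc, which makes histamine, was at 25.4 against 115.9 TPM. Of 14 neutrophil genes, 4 had the mean of at least 1 TPM needed for comparison, and 3 of these were higher and none lower (median 1.66). The defining neutrophil genes S100a8, S100a9 and Ly6g were listed at 0 in gef d14, although Csf3r, also made by monocytes, was at 62.6 against 4 TPM.

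Antigen presentation genes took a larger share of the RNA in gef d14. MHC class II genes were higher in 10 of 10 (median 2.39) and held 5.48% of all TPM in gef d14 against 0.821% in vehicle d3. H2-Ab1 and H2-Aa, the chains of I-A, were at 11994.7 against 1635.7 TPM and 8032 against 1039.7 TPM. MHC class I genes were higher in 18 of 19 and lower in none (median 2.77; 2.68% against 0.385% of TPM). Tap1, the peptide transporter, was at 482.3 against 55.5 TPM, and Nlrc5, the activator of class I transcription, at 143.6 against 10.3 TPM. H2-D1 was at 6880.6 against 871.6 TPM. The H2-Q genes share sequence with other class I genes, so values such as that of H2-Q7 (435.5 against 32.8 TPM) are uncertain.

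Interferon gamma genes had the highest median among the lists named here, 4.15, with 16 of 17 higher and none lower. Tgtp1 and Iigp1, GTPases that act against intracellular microbes, were at 301.7 against 7.9 TPM and 479.5 against 23.1 TPM, and Gbp4 at 97.1 against 3.7 TPM. Type I interferon genes were higher in 17 of 17 at a smaller median of 2.33. Ifit3 was at 113.1 against 6.1 TPM, and Irf7, the factor that amplifies type I interferon, at 23.3 TPM in vehicle d3, 432.4 TPM in gef d3 and 295.7 TPM in gef d14. Gef d3 had medians of 3.34 for interferon gamma genes and 2.65 for type I genes against the same vehicle library. The receptor chains Ifngr1 and Ifngr2 were at 216.3 against 63.9 TPM and 211 against 91.9 TPM.

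Fibroblast genes were higher in 15 of 16 cases and lower in none (median 2.53). Thy1, a surface protein of fibroblasts and T cells, was at 532.8 against 53.9 TPM, Dcn, decorin, at 321.6 against 48.2 TPM, and Fbln1, a matrix fibulin, at 108.9 against 10.1 TPM. Lum, lumican, was at 7.7 TPM in vehicle d3, 191.9 TPM in gef d3 and 69.8 TPM in gef d14. Collagens had 12 of 18 higher and 3 lower: Col12a1 and Col6a3 were at 227 against 37.2 TPM and 284.1 against 53.1 TPM, whereas Col18a1, of basement membranes, and Col14a1 were lower at 45.7 against 238.3 TPM and 104.7 against 485.4 TPM. Matrix proteases had 13 of 18 higher and 1 lower, with Mmp3 at 9.7 TPM in vehicle d3, 18.3 TPM in gef d3 and 88.7 TPM in gef d14. In the TGF-beta list 11 of 16 were higher and 1 lower, with the receptor gene Tgfbr2 at 310.7 against 81.9 TPM and Bmp4 lower at 20.2 against 69.5 TPM. Muscle, fat and skin genes were higher in the same library, and their part in the fibroblast values was not tested.

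Blood vessel genes were higher by less, in 14 of 20 cases with none lower (median 1.40). Eng, endoglin, was at 149.6 against 29 TPM, Tek, the angiopoietin receptor, at 10.9 against 1.5 TPM, and Vwf at 32.3 against 6 TPM. Kdr, which encodes VEGFR2, was at 18.6 against 7.5 TPM. The VEGF axis and tip cell list had 5 of 16 higher and 2 lower (median 0.14). Apln, apelin, a peptide of sprouting vessels and of some tumors, was at 227.4 TPM in vehicle d3, 47 TPM in gef d3 and 7 TPM in gef d14. Esm1, a tip cell gene, was at 4.7 TPM in vehicle d3, 14.7 TPM in gef d3 and 0.8 TPM in gef d14, while Nrp2 and Vegfc were higher at 83.6 against 12.2 TPM and 6.1 against 0.6 TPM. Pericyte and smooth muscle genes had 7 of 10 higher and none lower, led by Des, which is also abundant in skeletal muscle, at 273.1 against 19.1 TPM.

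**Figure D4:**
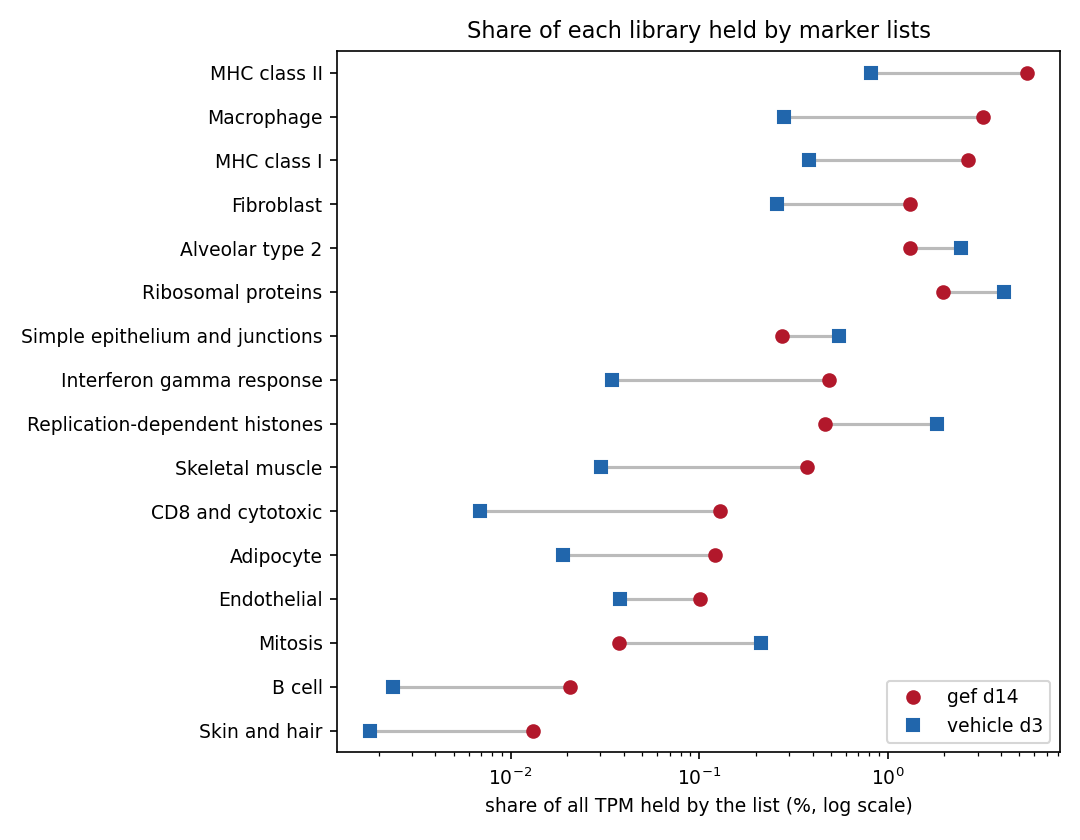
Share of all TPM (%, log scale) held by the listed members of 16 lists in gef d14 (red circles) and vehicle d3 (blue squares), with 1 library each. MHC class II (5.48% against 0.821%) and macrophage genes (3.21% against 0.282%) hold more in gef d14, and ribosomal proteins (1.97% against 4.12%), histones (0.467% against 1.82%) and mitosis genes (0.0376% against 0.213%) hold less.

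The composition of the RNA differed along with these lists. Of 12 common reference genes, to which the differences were not scaled, 3 were lower and none higher (median -0.07, or 0.04 under median-of-ratios scaling). The lower ones were Pgk1 (196.2 against 700.2 TPM), Gapdh (755.1 against 2091 TPM) and Ppia (1358.6 against 3149.4 TPM). Actb was at 11412.4 against 7597.2 TPM. Immediate early and heat shock genes, which can respond to handling of tissue, had 4 of 12 higher and 2 lower (median 0.82), with Fos at 56.3 against 9.7 TPM and Hsph1 lower at 18.4 against 40.9 TPM. Their part in the other lists was not tested.

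**Figure D5:**
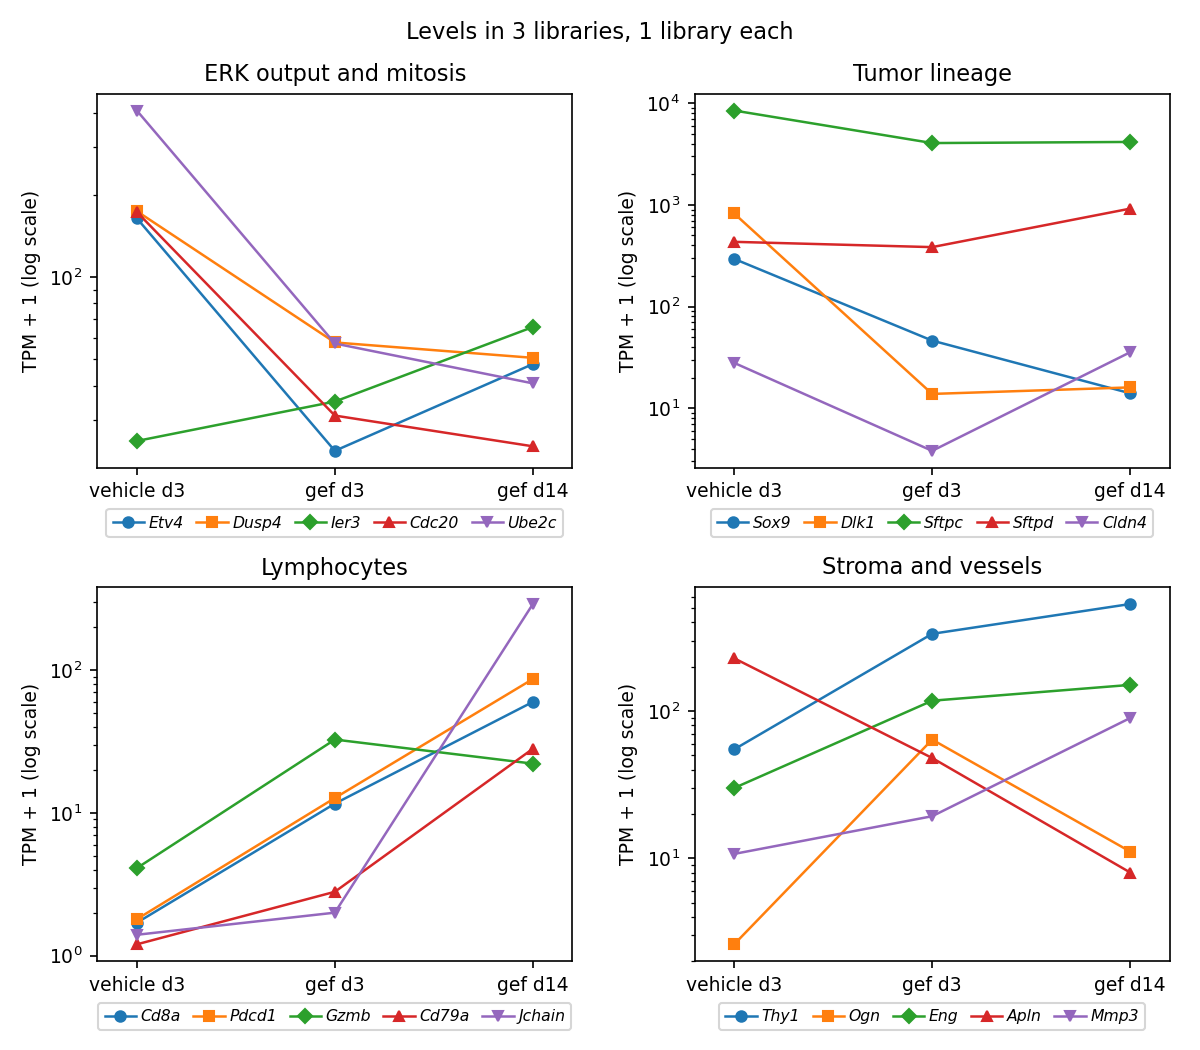
TPM + 1 (log scale) of 20 genes in vehicle d3, gef d3 and gef d14, with 1 library each; lines join the libraries of a gene and are not a time course of a single tumor. Jchain and Cd79a are high in gef d14 alone (288.8 and 27.1 TPM), Gzmb (31.6 TPM) and Ogn (63 TPM) are highest in gef d3, and Sox9 is at 293.4, 45.2 and 13 TPM.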

How the data were processed

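RNA from frozen subcutaneous tumors was depleted of ribosomal RNA and made into directional libraries, per the labels' protocols. The authors deposited TPM, rounded to 1 decimal, for 21892 gene symbols, and each library sums to about 1000000. Per the submitters' processing notes the build is GRCm38.p6, and no aligner, counter or annotation is named there. Because TPM does not carry depth, the depth is unknown and counting intervals cannot be had. A value of 0 is reported as listed at 0, since all 13 mitochondrially encoded protein genes are at 0 in every library.

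Differences were log2((TPM + 1) / (TPM + 1)), computed where the mean over 7 libraries was at least 1 TPM (13997 genes), in Python 3.11.15 with pandas 2.3.3 and checked on simulated data. With 1 library per group there is no test, p-value, SD or SE; the labels do not say how many animals a library holds. Gef d3 and gef d14 share the vehicle library, so their values stand side by side only. 87 gene lists with 1267 entries were written; 85 had at least 3 members compared. The comparison and the lists were chosen with earlier results of these data known. Genes named include the 12 highest and 12 lowest among protein-coding genes with at least 10 TPM in either library. Predicted, ribosomal protein, histone, antigen receptor and small RNA genes were left out there. Up to 4 members per list in the direction of its median and 2 in the other were also named (6 and 3 in 17 main lists). These members had at least 2 TPM in either library, and 13 genes are always given. Others, apart from the markers of the label check, were chosen after their values were seen: Erbb4, Ager, Chst4, Madcam1 and the neutrophil markers. Symbols were matched to RefSeq for position (21352 matched, 540 not). Alternatives were pseudocounts of 0.1 and 5 TPM, no filter, a mean of at least 5 TPM, a median-of-ratios rescaling over 8351 genes, a rescaling without the 20 most abundant, histone, hemoglobin and ribosomal protein genes, means over members, and members of no other list. Some genes the rule names are not reported here.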

Additional observations from a re-analysis of the deposited data

Results flagged for a closer look

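Some genes differed by at least 2-fold in opposite directions at day 14 and at day 3 of gefitinib, each against the same vehicle library; with 1 library per group the difference between the days was not tested. Mest, an imprinted gene, had a log2 difference of -1.93 at day 14 and 1.96 at day 3, at 8.9 TPM in vehicle d3, 37.4 TPM in gef d3 and 1.6 TPM in gef d14. F13a1, a coagulation factor chain made by monocytes and macrophages, had -1.87 at day 14 and 1.58 at day 3. Esm1, of endothelial tip cells, had -1.66 at day 14 and 1.46 at day 3. The hemoglobin genes Hba-a2 and Hba-a1 had -1.61 and -1.25 at day 14, and 1.39 and 1.2 at day 3, and the median of the erythroid list was -1.25 at day 14 and 1.2 at day 3. The hemoglobin genes are near-identical copies with uncertain values. The hair genes Tchh and Krt71 ran the other way, with 3.57 and 2.7 at day 14 and -1.08 and -2.26 at day 3. Krt71 was at 3.8 TPM in vehicle d3, listed at 0 in gef d3 and at 30.2 TPM in gef d14.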

How the results depend on the processing

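No paired analysis was possible because each group has 1 library, and for the same reason no replicate could be left out. Of the 85 list medians, 19 moved by at least 1.5-fold with a pseudocount of 5 TPM, 9 with 0.1 TPM and 9 without a filter. Among genes named by the rule, 157 moved that far with 5 TPM and 315 did not. With 0.1 TPM 77 moved and 395 did not. With a pseudocount of 5 TPM, 2073 genes were higher. The main lists that moved then had medians of 0.97 for alveolar type 1, 2.89 for T cell receptor, 1.93 for CD8 and cytotoxic, 1.18 for B cell and 1.7 for plasma cell genes. With a pseudocount of 0.1 TPM the CD8 and B cell medians were 5.03 and 4.04. Among genes with a mean of at least 5 TPM the B cell median was 3.21 and the squamous median turned to -0.63. Other medians also changed sign. At a mean of at least 5 TPM, EGF family ligands went from 0.67 to -0.32 and club cell genes from 0.09 to -1.43. As means over members, club cell genes were at -0.82 and NRF2 genes at 0.13, against a main median of -0.16 for NRF2. Notch genes went from -0.16 to 0.17 without a filter. Under median-of-ratios rescaling the median of all genes was 0.13 and 68.9% of the genes past 2-fold were higher; without the abundant genes these were -0.08 and 58.5%, against 64.1% in the main calculation. Neither rescaling changed the sign of a list median except that of the reference genes (0.04). The cause of these shifts was not tested. Depth is unknown, and levels near the rounding step of 0.1 TPM are imprecise.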

Other observations

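Gene families grouped by the letters of their symbols before the first digit, chosen after the data were seen, add groups to those above. All 10 Gbp genes compared, interferon-induced GTPases, were higher in gef d14 (median log2 difference 4.04, from 3.41 to 6.27). Of 8 Gimap genes, GTPases of lymphocytes, 7 were higher and none lower (median 3.49), and of 12 Tlr genes, receptors for microbial products, 9 were higher and none lower (median 2.87). C-type lectin genes of the Clec family had 16 of 21 higher and 1 lower. Hair genes formed another group: 24 of 31 Krtap genes, keratin-associated proteins of the hair shaft, were higher and none lower (median 1.43), beside 21 of 33 Krt genes higher and 1 lower. These families share sequence among members, so single values are uncertain, and no family was tested.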
